A study of Homo sapiens with 3 samples.

Results

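The CYP3A gene cluster on human chromosome 7 comprised 6 genes of the locus: CYP3A5, CYP3A7, CYP3A4 and CYP3A43, the read-through gene CYP3A7-CYP3A51P and ZSCAN25, out of 20037 protein-coding genes placed on the nuclear chromosomes of the RefSeq table of assembly GRCh38.p14. The genes were selected on the peaks of these same libraries, so that their peak numbers and fold enrichments describe the locus and are not tests. A peak was assigned to a gene when it overlapped the gene or the 1000 bp on either side. This gave the locus 32 peaks from the SOX4 list, which has 4513, and 45 from the STAT6 list, which has 1078. All 3 libraries were prepared from Hep3B cells, a long-established liver cancer line, for which the labels name neither a treatment nor a genetic change. In CUT&RUN, a nuclease tethered to an antibody releases the DNA around the bound protein, and the antibodies here recognised SOX4, recognised STAT6 or, as the IgG control of both lists, had no specific target. With a single library per antibody there were no replicates, and no test across libraries was possible. Transcript levels of the CYP3A genes in these cells were not analysed here.

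CYP3A enzymes are cytochrome P450 monooxygenases of the endoplasmic reticulum that oxidise drugs, steroids and bile acids, mainly in liver and intestine. CYP3A4 is the main adult hepatic form, CYP3A5 is expressed in a part of the population, CYP3A7 is the form of fetal liver and CYP3A43 is expressed at low levels. Transcription of the locus is controlled by nuclear receptors such as the pregnane X receptor, which pairs with the retinoid X receptor on repeated hexamers near the gene starts. SOX4 is an HMG-box transcription factor that recognises AACAAAG-like sites, and STAT6 is the factor activated by interleukin-4 that recognises TTC and GAA separated by a few bases.

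The sequences just upstream of the 4 CYP3A gene starts are shown because each start lay under a peak of both lists. They are the 250 bases before the annotated start, from RefSeq on GRCh38.p14, written 5′ to 3′ along the strand of the gene, and all 6 members were matched in the table. Capitals mark the hexamers TGAACT and AGGTCA where they stand 6 bases apart, an everted repeat known as an element of the pregnane X receptor, and the TATA-box letters ATATAAA. CYP3A4 lies at chr7:99784185-99784434 (minus strand), CYP3A7 at chr7:99735197-99735446 (minus strand), CYP3A5 at chr7:99679997-99680246 (minus strand) and CYP3A43 at chr7:99827763-99828012 (plus strand). CYP3A7-CYP3A51P has the same start and upstream sequence as CYP3A7.
CYP3A4: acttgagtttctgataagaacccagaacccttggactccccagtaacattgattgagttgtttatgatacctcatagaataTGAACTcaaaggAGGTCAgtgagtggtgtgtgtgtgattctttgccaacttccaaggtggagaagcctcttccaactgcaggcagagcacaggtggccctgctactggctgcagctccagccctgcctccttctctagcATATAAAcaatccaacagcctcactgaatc
CYP3A7: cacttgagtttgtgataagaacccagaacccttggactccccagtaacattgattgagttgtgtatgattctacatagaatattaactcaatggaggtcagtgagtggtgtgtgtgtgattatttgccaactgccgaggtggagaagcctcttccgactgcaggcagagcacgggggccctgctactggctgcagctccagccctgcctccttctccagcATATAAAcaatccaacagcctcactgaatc
CYP3A5: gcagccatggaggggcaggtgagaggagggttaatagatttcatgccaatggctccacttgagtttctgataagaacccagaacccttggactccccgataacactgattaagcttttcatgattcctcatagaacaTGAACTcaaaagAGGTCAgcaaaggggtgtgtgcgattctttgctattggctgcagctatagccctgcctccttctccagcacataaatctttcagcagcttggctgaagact
CYP3A43: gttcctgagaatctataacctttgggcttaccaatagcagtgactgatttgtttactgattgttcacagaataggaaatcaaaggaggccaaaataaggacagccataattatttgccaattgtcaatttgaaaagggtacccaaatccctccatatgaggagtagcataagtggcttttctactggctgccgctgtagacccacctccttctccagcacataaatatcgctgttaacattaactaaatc

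All 250 bases of each of these windows lay under a SOX4 peak. STAT6 peaks covered 92.4% of the window of CYP3A4, 83.2% of that of CYP3A5, 64.8% of that of CYP3A7 and 8.40% of that of CYP3A43. Among all 35116 upstream windows of the table, 0.544% touched a SOX4 peak and 0.299% a STAT6 peak. The windows of CYP3A4 and CYP3A7 were identical in 94.0% of the columns of their alignment, while the other pairs of genes ranged from 52.1% to 65.7%. Reads of such similar stretches may match both genes, and how reads with more than 1 match were handled is not given in the sources used here, so the assignment of signal between CYP3A4 and CYP3A7 at their starts is uncertain.

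Letter matches were searched on both strands of the upstream windows, as a description and not as binding sites. The everted repeat, TGAACT and AGGTCA with 6 bases between, was found in CYP3A4 from position -169 to -152 and in CYP3A5 from -113 to -96, and in 3 of the 35116 windows of the table (0.00854%). The TATA letters ATATAAA stood from -30 to -24 in CYP3A4 and CYP3A7, and 3.53% of all windows held them. AACAAT, a core of SOX sites, was found in CYP3A4 and CYP3A7 from -25 to -20, where it overlaps the TATA letters by 2 bases, and in CYP3A43 from -192 to -187 on the other strand, against 8.98% of all windows. The longer SOX letters AACAAAG (4.50% of all windows) and AACAATG (2.87%) were in none of the windows of the 6 genes. The SOX4 consensus given in the paper also allows other longer forms, which were not searched across all windows. Such forms do stand in the sequences above. ATCAAAG is in CYP3A43, and ATCAATG is on the other strand in CYP3A4 and CYP3A7. TTC and GAA with 4 bases between, the spacing preferred by STAT6, occurred in CYP3A43 from -249 to -240, against 5.38% of all windows. The spacing of 3 bases occurred in CYP3A43 from -188 to -180, against 6.57%. Neither spacing was found in the windows of CYP3A4, CYP3A5 and CYP3A7. The summits of both lists over the starts of the CYP3A genes lay inside the genes and so outside these windows. The sequence at the summits was therefore not searched, and nothing is read from the missing letters.

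To describe how strongly the locus was enriched, the peaks were compared with their own lists. Fold enrichment is the deposited ratio of the antibody library to a control level at the summit, from peak calls against IgG. The 32 SOX4 peaks at the 6 genes had a median fold enrichment of 102 and ranged from 43.4 to 152, while the whole SOX4 list had a median of 5.88 and a maximum of 264. All 32 therefore ranked between 69 and 617 of 4513 by fold enrichment. The 45 STAT6 peaks had a median fold enrichment of 10.1 and ranged from 4.26 to 17.4, while the whole STAT6 list had a median of 7.27 and a maximum of 49.9. Their ranks ran from 50 to 807 of 1078, so the STAT6 peaks of the locus spread over most of their list while the SOX4 peaks sat near the top of theirs. The −log10 q values ran from 307 to 1532 for SOX4 and from 4.10 to 50.9 for STAT6. The locus held 0.709% of the SOX4 list and 4.17% of the STAT6 list.

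The depth behind these values was recovered, in a step chosen after the values were seen, from the fold enrichment and the −log10 p together, with the fold taken as (pileup + 1) over (control + 1) and p as the Poisson tail of the pileup. The pileup is the number of fragments over the summit, and the control is the background level that the fold sets against it. A whole-number pileup matched the deposited −log10 p within 0.01 for all 4513 SOX4 and all 1078 STAT6 peaks, whereas 1 fragment more or less moved it by at least 0.289 at the locus. SOX4 summits of the locus had a median pileup of 561 fragments, from 237 to 886, over a control of 4.49 to 6.64. STAT6 summits had a median of 33.0 fragments, from 15 to 54, over a control of 2.16 to 3.32. Thus the median SOX4 pileup of the locus was 17.0 times the median STAT6 pileup, while the most common control level of the SOX4 list was 2.07 times that of the STAT6 list. Over the whole lists the median pileups were 37.0 for SOX4 and 34.0 for STAT6, so the factor of 17.0 describes this locus and not the lists as a whole. The control stood at the most common level of its list, 4.49 for SOX4 and 2.16 for STAT6, at 21 of the 32 SOX4 and 29 of the 45 STAT6 summits. In the whole lists, 1982 SOX4 and 303 STAT6 peaks had this level. At these summits the fold thus rests on a level common to many peaks, not on an IgG value particular to the site. Counting error at 15 to 54 fragments is much larger, relative to the value, than at 237 to 886, and the absence of a STAT6 peak at a site means that none was detectable at this depth.

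**Figure D1:**
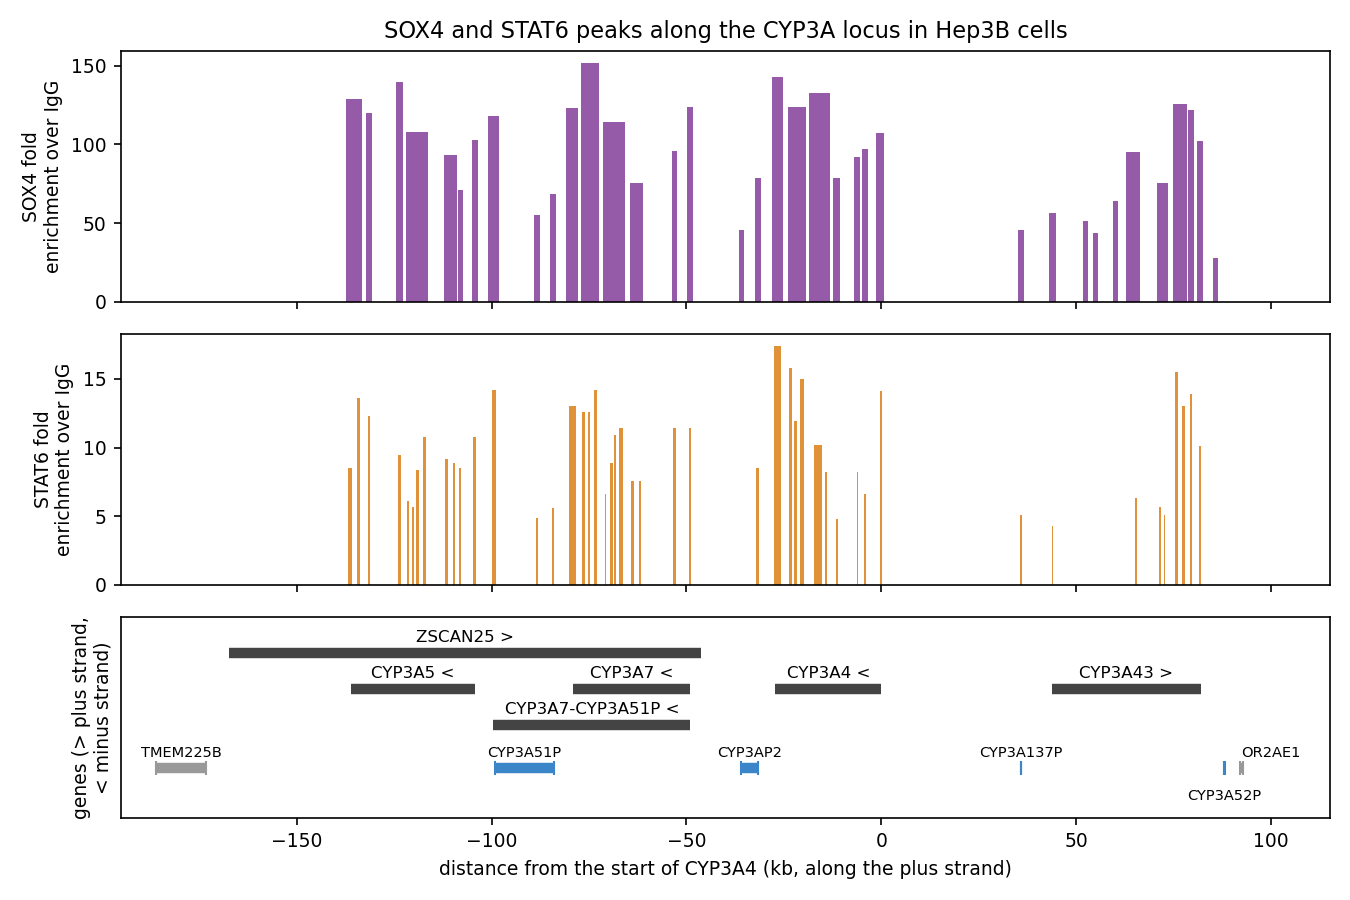
Peaks along the CYP3A locus. The upper panels plot the fold enrichment over IgG of each SOX4 and STAT6 peak, as bars as wide as the peak, against the distance from the start of CYP3A4 in kb, and the lower panel shows the 6 genes (dark), pseudogenes (blue) and the nearest protein-coding neighbours (grey). Bars stand over the CYP3A genes with folds of up to 152 for SOX4 and 17.4 for STAT6, and few stand between them.

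Each of the 6 genes held peaks of both lists. This is the property the genes were chosen by, and of all 20037 protein-coding genes 6.35% held a SOX4 peak, 1.08% a STAT6 peak and 1.03% both. All peaks assigned to a gene overlapped the gene itself, since leaving out the 1000 bp margin removed none of the 32 and 45 peaks. The nearest SOX4 peak outside the margin lay 3140 bp beyond CYP3A43, from 99869233 to 99870543, with a fold of 27.5. The nearest STAT6 peak outside lay 4287 bp from CYP3A4, with a fold of 8.54.

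CYP3A4 (gene ID 1576, chromosome 7 from 99756967 to 99784184, minus strand) was the most densely covered of the 6 genes. Its 27218 bp held 7 SOX4 peaks over 66.7% of the gene and 10 STAT6 peaks over 31.3%. The SOX4 folds ran from 78.8 to 143 with a median of 107, and the STAT6 folds from 4.76 to 17.4 with a median of 11.0. The highest peaks of both lists lay over the annotated 3′ end of the gene, with their summits inside the gene. That SOX4 peak ran from 99756196 to 99758949 with a fold of 143 (rank 91 of its list), and that STAT6 peak from 99756658 to 99758516 with a fold of 17.4 (rank 50), the highest STAT6 fold of the locus. Over the gene start, the SOX4 peak from 99782771 to 99784863 had a fold of 107 and the STAT6 peak from 99783709 to 99784415 one of 14.1. The SOX4 folds between these ends were 124, 133, 78.8, 92.2 and 96.9 in order of position, so each was far above the median of the whole list, 5.88. The antisense RNA CYP3A4-AS1 lies inside CYP3A4 and overlapped 2 of its SOX4 peaks and 1 STAT6 peak, and the assay does not tell strands apart.

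CYP3A5 (gene ID 1577, from 99648194 to 99679996, minus strand) lies at the low-coordinate end of the cluster. It held 7 SOX4 peaks, covering 54.0% of its 31803 bp, and 12 STAT6 peaks, covering 21.7%. The SOX4 folds were 129, 120, 140, 108, 93.5, 71.3 and 103 in order of position, from the 3′ to the 5′ end. The highest, from 99659716 to 99661388, lay inside the gene. The STAT6 folds ran from 5.69 to 13.6, with the highest from 99649800 to 99650474 near the 3′ end. A single SOX4 peak from 99662130 to 99667788, the widest of the cluster at 5659 bp, enclosed 4 STAT6 peaks with folds of 6.10, 5.69, 8.39 and 10.8.

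CYP3A7 (gene ID 1551, from 99705036 to 99735196, minus strand) held 6 SOX4 peaks over 57.5% of its 30161 bp and 12 STAT6 peaks over 25.8%. Its SOX4 folds ran from 75.3 to 152 with a median of 119, the highest median of the 4 CYP3A genes. The peak from 99707053 to 99711621, with a fold of 152 and 834 fragments over its summit, was the highest SOX4 peak of the locus (rank 69 of its list) and enclosed 3 STAT6 peaks with folds of 12.6, 12.6 and 14.2. The STAT6 folds ran from 6.64 to 14.2 with a median of 11.4. At the start of the gene the SOX4 fold was 124 and the STAT6 fold 11.4.

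CYP3A7-CYP3A51P (gene ID 100861540, from 99684677 to 99735196, minus strand) contains all of CYP3A7 and joins it to the pseudogene CYP3A51P. It held 9 SOX4 and 15 STAT6 peaks, which include all those of CYP3A7, so 3 SOX4 and 3 STAT6 peaks were not shared with CYP3A7. These lay at the pseudogene. The pair at the 3′ end was high, with a SOX4 fold of 118 and a STAT6 fold of 14.2. The other pairs were lower, with SOX4 folds of 54.9 and 68.5 and STAT6 folds of 4.87 and 5.59. The control level at these 2 pairs, 6.64 and 6.13 for SOX4, was at the upper end of the range for the locus. Over the 20.4 kb of the read-through gene before CYP3A7, SOX4 peaks covered 29.5% and STAT6 peaks 13.2%, less than within CYP3A7.

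CYP3A43 (gene ID 64816, from 99828013 to 99866093, plus strand) differed from CYP3A4, CYP3A5 and CYP3A7 in the low folds of its 5′ peaks and in its low STAT6 coverage. It held 9 SOX4 peaks over 45.7% of its 38081 bp but 8 STAT6 peaks over 10.5%, the lowest STAT6 coverage of the 5 CYP3A entries. The SOX4 folds from the 5′ to the 3′ end were 56.4, 51.6, 43.4, 63.8, 95.5, 75.6, 126, 122 and 102. The first 4 thus lay below every SOX4 fold of CYP3A4, CYP3A5 and CYP3A7, and the last 5 lay within the range of those genes. Of the first 4 peaks, 3 held no STAT6 peak, and the STAT6 peak at the gene start had a fold of 4.26 with 16 fragments, the lowest STAT6 fold of the locus. Towards the 3′ end the STAT6 folds were 6.32, 5.69, 5.06, 15.5, 13.0, 13.9 and 10.1. The 3′ portion of CYP3A43 therefore reached the STAT6 folds of CYP3A4, while its 5′ portion did not.

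**Figure D2:**
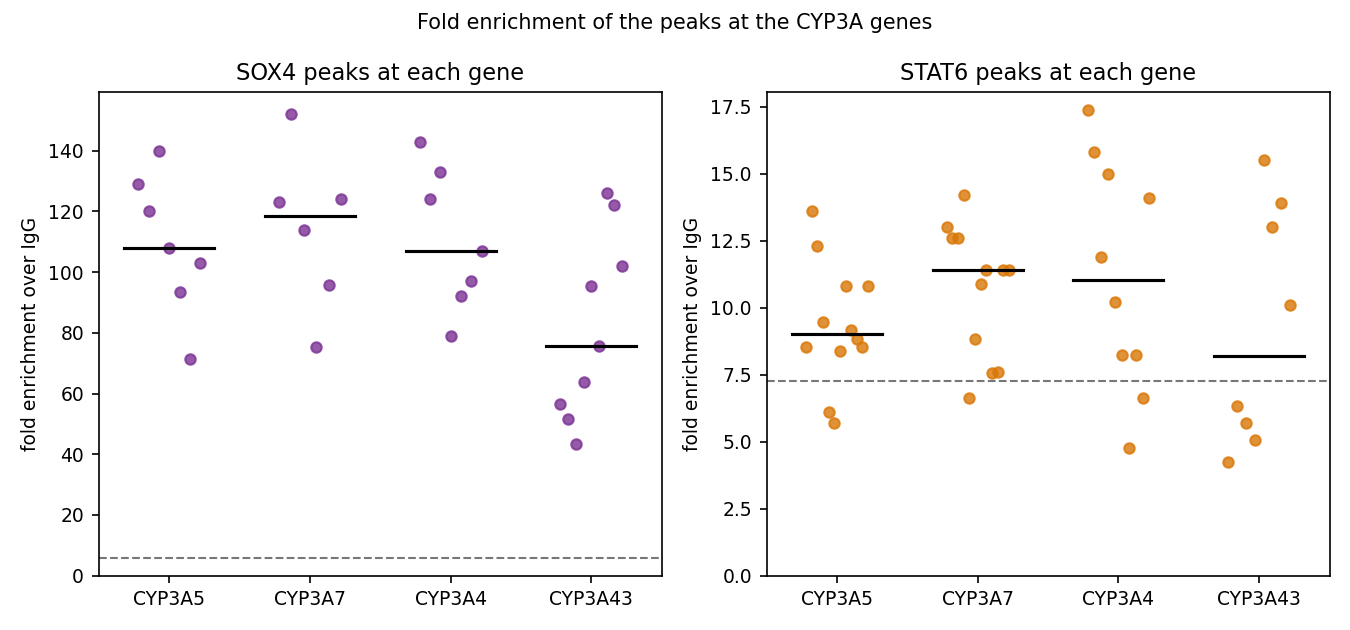
Fold enrichment over IgG of every peak at CYP3A5, CYP3A7, CYP3A4 and CYP3A43, with the SOX4 peaks on the left and the STAT6 peaks on the right. Points are peaks in order of position, black lines are the gene medians and dashed lines are the medians of the whole lists, 5.88 and 7.27. All SOX4 points lie above the dashed line, whereas STAT6 points lie on both sides of it.

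ZSCAN25 (gene ID 221785, from 99616946 to 99738035, plus strand), a zinc finger gene with a SCAN domain, spans 121090 bp in this annotation and runs across CYP3A5 and CYP3A7 on the opposite strand. It overlapped 16 SOX4 and 27 STAT6 peaks, and all of them were also assigned to CYP3A5 or CYP3A7-CYP3A51P. In its 31.2 kb before CYP3A5 there was 1 SOX4 and 1 STAT6 peak, both over the end of CYP3A5, and they covered 4.28% and 2.54% of that stretch. The start of ZSCAN25 had no peak of either list, with the nearest SOX4 peak 29911 bp and the nearest STAT6 peak 30454 bp away. The peaks counted at ZSCAN25 therefore cannot be told apart from those of the CYP3A genes it overlaps, and its own upstream window held none.

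Peaks lay over both ends of the CYP3A genes as well as inside them. The SOX4 summit lay 124 bp into the gene from the start of CYP3A4, 91 bp from that of CYP3A7, 122 bp from that of CYP3A5 and 38 bp from that of CYP3A43. The STAT6 summits lay 143, 143, 141 and 44 bp into these genes. The summits of both lists thus fell just inside each gene start. At the 3′ ends, all 5 CYP3A entries were also covered by a peak of each list, with SOX4 folds from 102 to 143. Peaks at the gene starts had SOX4 folds from 56.4 to 124. Their STAT6 folds were 14.1 in CYP3A4, 10.8 in CYP3A5, 11.4 in CYP3A7 and 4.26 in CYP3A43. By fold, no start peak was the highest of its gene in either list. With each gene split at its middle, the STAT6 start peaks of CYP3A4, CYP3A5 and CYP3A7 equalled the highest STAT6 fold of the 5′ portion. For SOX4 this held in CYP3A4 and CYP3A7 and not in CYP3A5 and CYP3A43.

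**Figure D3:**
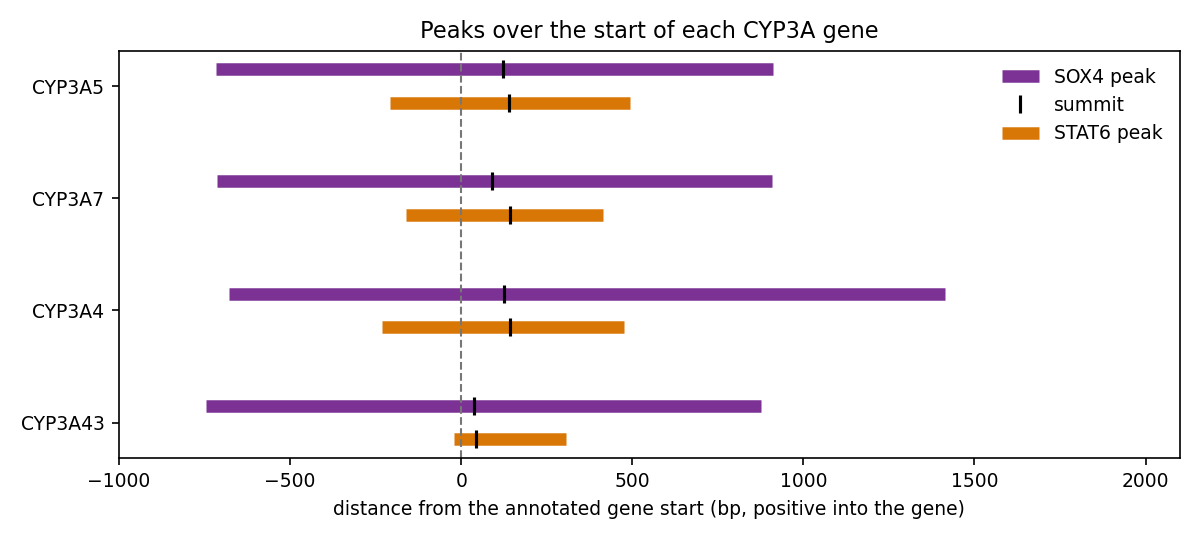
Peaks over the starts of CYP3A5, CYP3A7, CYP3A4 and CYP3A43. Bars span each SOX4 and STAT6 peak on an axis of distance from the annotated start in bp, positive into the gene, and ticks mark the summits. All 8 summits lie between 38 and 143 bp into the gene, and the STAT6 bars lie inside the SOX4 bars.

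The gaps between the genes carried far less signal than the genes. The 5 CYP3A entries together cover 148 kb, of which 51.5% lay under SOX4 peaks and 20.2% under STAT6 peaks. The 3 gaps between them cover 70.3 kb, of which 13.1% and 3.10% lay under peaks, so the gene bodies were covered 3.93 times as much for SOX4 and 6.53 times for STAT6. The short gap between CYP3A5 and CYP3A7-CYP3A51P was the exception, with 42.8% and 11.5% under peaks that reach in from both genes. A part of the gap coverage came from peaks that reach past a gene end, and with 1000 bp taken off each side of the gaps it was 7.15% and 1.43%. Over all chromosomes, SOX4 peaks covered 0.159% and STAT6 peaks 0.0306% of the sequence.

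The summits within the gaps all lay at pseudogenes. The 4.68 kb between CYP3A5 and CYP3A7-CYP3A51P held no summit. The 21.8 kb between CYP3A7 and CYP3A4 held 2 SOX4 summits and 1 STAT6 summit, at the 2 ends of CYP3AP2, a CYP3A pseudogene of 4243 bp. The SOX4 peak at its lower end had a fold of 45.4 and no STAT6 peak. The peak at its upper end had a SOX4 fold of 78.4, and the STAT6 peak there had a fold of 8.54. The 43.8 kb between CYP3A4 and CYP3A43 held 1 SOX4 peak, from 99819267 to 99820692 with a fold of 45.4, and 1 STAT6 peak, from 99819768 to 99820143 with a fold of 5.06. Both enclosed CYP3A137P, an annotated CYP3A pseudogene fragment of 69 bp, and their summits lay 98 bp and 67 bp from its middle. A further fragment, CYP3A52P with 91 bp beyond CYP3A43, had no peak, and the SOX4 peak with a fold of 27.5 lay 1625 bp from it. Whether reads at pseudogenes come from the genes they resemble was not tested.

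**Figure D4:**
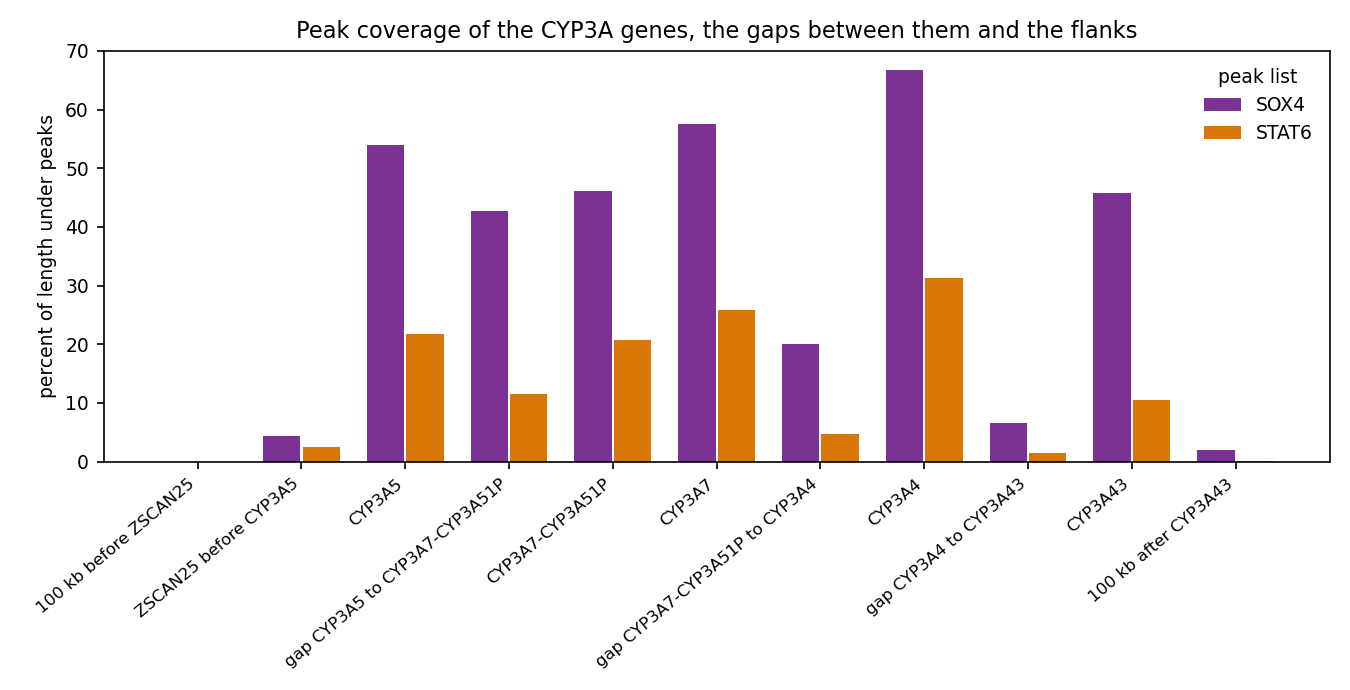
Percent of the length under SOX4 and STAT6 peaks for each CYP3A gene, the gaps between them, the stretch of ZSCAN25 before CYP3A5 and 100 kb beyond either end of the locus, in order along the chromosome. CYP3A4 reaches 66.7% for SOX4 and 31.3% for STAT6, and the gap between CYP3A4 and CYP3A43 has 6.51% and 1.43%.

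Peaks were dense within the cluster and sparse beyond it. No peak of either list lay in the 100 kb before ZSCAN25, and its neighbour TMEM225B had none. Genes without a peak are the rule in both lists, since 6.35% of all protein-coding genes held a SOX4 peak and 1.08% a STAT6 peak. Empty neighbours are therefore not particular to this locus. Before the first peak at CYP3A5, SOX4 peaks resumed only at a distance of 231 kb, with a fold of 4.19, and STAT6 peaks at 595 kb. On the other side, OR2AE1 and TRIM4, the next protein-coding genes after CYP3A43, held no peak. In the 100 kb after CYP3A43 the SOX4 list held the peak over the end of that gene and the peak with a fold of 27.5, and the STAT6 list held the peak over the gene end alone. The next STAT6 peak of chromosome 7 came after 16944 kb. Within the cluster, neighbouring SOX4 summits were a median of 4.88 kb apart and neighbouring STAT6 summits 2.74 kb.

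To compare the sites of SOX4 and STAT6 within the cluster, a common site was taken as an overlap of 1 bp or more. All 45 STAT6 peaks at the genes overlapped a SOX4 peak (100%, exact Clopper-Pearson 95% interval 92.1% to 100%), against 848 of 1078 in the whole list. For SOX4, 29 of 32 did so with STAT6 (90.6%, 75.0% to 98.0%), against 640 of 4513. Intervals cover counting error over peaks only and treat the peaks as independent. Neighbouring peaks of the same locus and library are not, so the intervals are likely too narrow. The locus was also selected with both lists known. With the pseudogene sites included, all 47 STAT6 peaks lay entirely inside a SOX4 peak, 10 SOX4 peaks held at least 2 STAT6 peaks, and the median width was 1724 bp for SOX4 and 675 bp for STAT6 peaks at the genes. Summits of the 47 pairs were a median of 56.0 bp apart, with 63.8% of them no more than 200 bp apart. The share of the 45 STAT6 peaks depended on the definition and was 62.2% with summits within 200 bp and 4.44% with at least 50% of both peaks covered.

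STAT6 folds followed SOX4 folds from site to site. Over the 31 SOX4 peaks with a STAT6 peak, the log2 folds of the SOX4 peak and of its highest STAT6 peak had a Pearson r of 0.857 and a Spearman rho of 0.832. This is a description across sites that share the IgG control, the cell line and their neighbours, and a wide SOX4 peak can hold several STAT6 peaks. The 5 SOX4 peaks without a STAT6 peak were 3 in the 5′ portion of CYP3A43, the lower one at CYP3AP2 and the one past CYP3A43. Their folds ran from 27.5 to 63.8, while the 31 others ran from 45.4 to 152 and 3 of these were at or below 63.8. Within the shared pairs, the SOX4 fold was a median of 10.5 times the STAT6 fold, from 7.63 to 18.9 times. The folds come from different antibodies, libraries and control levels, so this ratio does not measure the relative binding of the factors.

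**Figure D5:**
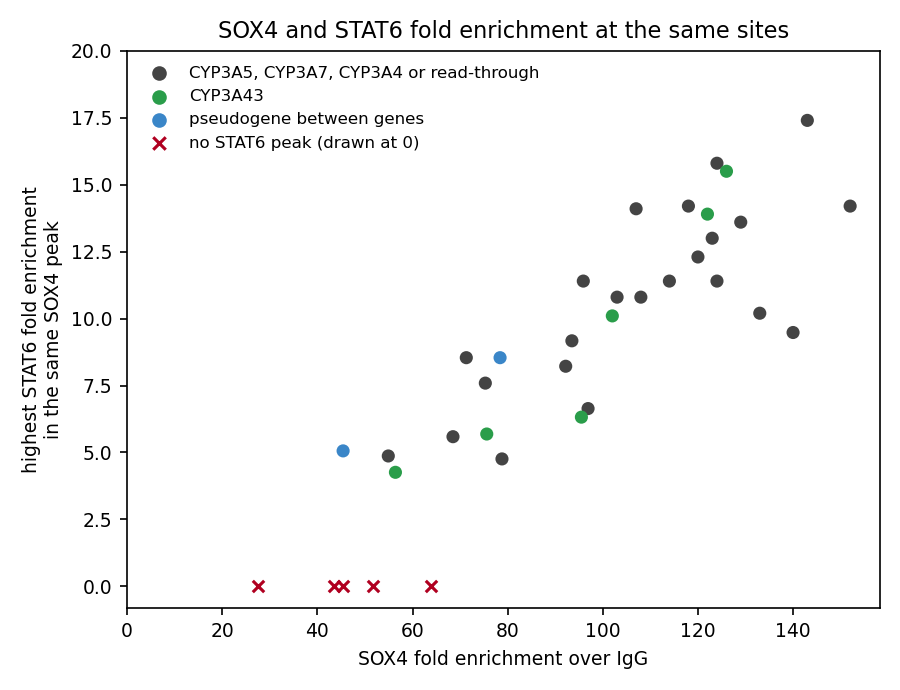
SOX4 fold enrichment of each SOX4 peak of the locus against the highest STAT6 fold enrichment inside it, both over IgG. Points are the 31 SOX4 peaks that hold a STAT6 peak, coloured by gene, and crosses drawn at 0 are the 5 that hold none, all with a SOX4 fold of 63.8 or less.

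Other genes of the same pathway were examined from lists of genes. None of 16 regulators of CYP3A transcription held a SOX4 or a STAT6 peak, among them NR1I2 (the pregnane X receptor), NR1I3 (the constitutive androstane receptor), RXRA (their partner), HNF4A (a hepatocyte factor) and VDR (the vitamin D receptor). None of 4 redox partners of microsomal P450 enzymes did, among them POR, the reductase that passes electrons to them, and CYB5A, cytochrome b5. With 6.35% of all protein-coding genes holding a SOX4 peak and 1.08% a STAT6 peak, lists of this size can hold none, and nothing is read from these counts. Of the 51 other protein-coding genes of the CYP families, 24 held a SOX4 peak and 23 a STAT6 peak, and 23 (45.1%) held both, while 1.03% of all protein-coding genes did. Among them were CYP1A1, CYP1A2 and CYP1B1, the CYP2A genes CYP2A6, CYP2A7 and CYP2A13, and the CYP4F genes CYP4F2, CYP4F3, CYP4F8, CYP4F11 and CYP4F12. CYP4F22 held a SOX4 peak alone, with a fold of 20.7. The other 27 held no peak of either list.

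By coverage, the genes most like the 4 CYP3A genes were found among all protein-coding genes as those with the smallest distance in the percent of the gene and its margins under SOX4 and under STAT6 peaks, over the 2 lists. The medians of CYP3A4, CYP3A5, CYP3A7 and CYP3A43 were 57.6% and 25.6%. CYP4F2, a fatty acid and vitamin K hydroxylase, was nearest with 58.3% and 26.7%. CACNA1S, a muscle calcium channel subunit, had 60.4% and 24.7%, and TRPA1, a sensory ion channel, had 53.2% and 26.2%. TRPV1, the capsaicin receptor, had 53.9% and 28.1%, and HLA-DQA2, a class II histocompatibility gene, had 54.4% and 21.9%. By the number of SOX4 peaks, ZSCAN25 ranked 6 of 20037 genes and CYP3A43 and CYP3A7-CYP3A51P shared rank 17. CYP3A4 and CYP3A5 shared rank 25, and CYP3A7 had rank 31. Overlapping genes are ranked here on the same peaks, and the members were selected on these peaks, so the ranks are a description only.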

How the data were processed

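The series held 3 Hep3B libraries, labelled ChIP and prepared with a CUT&RUN kit. Per the labels, the submitters' processing notes name BWA, Partek and the build hg38, and the study's methods name Partek Flow. The peak caller, its version and its threshold are not given in the sources used here. For each antibody the authors deposited 1 peak list against IgG, giving peak positions, fold enrichment as a ratio, significance as −log10 of p and of q, and a browser score that was not used. The total reads per library are unknown.

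Groups followed the labels. Positions are 1-based, and hg38 was matched to RefSeq GRCh38.p14, which gives gene ends and upstream sequences but no exons here, so exons and introns were not analysed. Members, gene lists, gene portions and comparisons were chosen with earlier results of these data known. All 6 members, peaks of each member, some of the pathway genes with a peak and the 5 genes nearest in coverage are named, and 1 item of the pathway lists is not reported here. Gaps were taken between the 5 CYP3A entries. Alignments were global, with identity over all columns. Overlap and coverage scripts were tested on simulated data. Python 3.11.15, numpy 2.4.6, pandas 2.3.3, scipy 1.17.1, Biopython 1.88 and matplotlib 3.10.9 were used.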

Additional observations from a re-analysis of the deposited data

How the results depend on the processing

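Over 9 results, 36 alternatives were run. A count, coverage or median was taken as unchanged within a factor of 1.5 and the overlap share within its 95% interval. Settings on the percentile scale were counted as moved whatever their value. This gave 30 unchanged and 6 moved, and no rule for a reversal was set. Some settings could not change a result. The SOX4 peaks at the genes had a lowest −log10 q of 307 and a lowest fold of 43.4, far above the thresholds of 5. All ZSCAN25 peaks were also assigned to CYP3A genes, so leaving it out removed none. The overlap share of the 45 STAT6 peaks was 62.2% with summits within 200 bp and 4.44% with at least 50% of both peaks covered, since STAT6 peaks are narrower and lie inside SOX4 peaks. With 1000 bp taken off each side of the gaps, coverage of the gaps was 7.15% for SOX4 and 1.43% for STAT6, although 1 SOX4 peak over the end of CYP3A7-CYP3A51P still reached in. As percentiles of their lists, another scale, the median folds stood at 94.2 for SOX4 and 69.0 for STAT6. The settings without ZSCAN25 and with gaps between all 6 genes were chosen after seeing the data. No paired analysis was possible because there were no replicates to pair. The low STAT6 pileup limits what the missing STAT6 peaks of CYP3A43 can show.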

Other observations

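Split at the middle of each gene, a choice made after the peaks were seen, the 3′ portion had the higher median SOX4 fold in all 4 CYP3A genes. The medians of the 3′ and 5′ portions were 133 and 94.6 in CYP3A4, 123 and 95.9 in CYP3A7, 129 and 98.3 in CYP3A5 and 102 and 54.0 in CYP3A43. For STAT6 they were 13.5 and 7.43 in CYP3A4, 12.0 and 9.49 in CYP3A7, and 9.01 in both portions of CYP3A5. In CYP3A43 the 3′ median was 10.1, against a single 5′ summit at 4.26. SOX4 coverage of the 3′ and 5′ portions was 85.1% and 48.3% in CYP3A4, 79.4% and 35.6% in CYP3A7 and 63.8% and 27.6% in CYP3A43. In CYP3A5 it was 49.4% and 58.5%. STAT6 coverage was likewise higher in the 3′ portion of CYP3A4, CYP3A7 and CYP3A43, and lower in that of CYP3A5, with 18.1% against 25.3%. CYP3A43 lies on the plus strand and the other 3 genes on the minus strand, so the higher portions do not share a direction along the chromosome. The position of exons in these portions was not analysed here, and the cause was not tested.

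The SOX4 peaks at the lower end of CYP3AP2 and at CYP3A137P had the same fold, 45.4, and the same pileup of 248 fragments. Both had the most common control level, 4.49, so the equal fold follows from the equal pileup. Of the 36 SOX4 peaks of the locus these 2 shared a fold, and of the 47 STAT6 peaks 19 shared a fold with another. Whether the sites share reads was not tested.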
